A study of Mus musculus with 38 samples.

Results

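The genes described here are 35 genes by which neurons are recognised, measured in 38 RNA-seq libraries of oligodendrocyte precursor cells (OPCs), the dividing glial cells that mature into myelinating oligodendrocytes. The 35 were taken by gene name from a list of pan-neuronal, excitatory and inhibitory genes. All 35 were among the 54532 genes counted, and all 35 passed the filter on low counts that left 22798 genes for testing. The cells came from the forebrain of mice of postnatal day 6 to 7 and were purified by immunopanning. In this method dishes coated with BSL1 lectin first hold back unwanted cells, microglia above all, and OPCs then stick to a dish coated with antibody to their receptor PDGFRα. The labels name no dish directed against neurons. Every mouse carried 2 floxed alleles of Bmal1, the gene (symbol Arntl) of the transcription factor BMAL1 that drives the circadian clock. Cre-negative mice (NG2:Cre-;Bmal1fl/fl) are called WT, and mice with a Cre transgene under the promoter of NG2 (Cspg4), a gene that OPCs and pericytes express, are called KO (NG2:Cre+;Bmal1fl/fl). The deletion takes out the DNA-binding domain, and the submitters describe a hypomorph with lowered BMAL1 in OPCs. Mice with Cre and intact Bmal1 were not analysed here, so the transgene and the deletion cannot be told apart. Collection times are in hours after lights went on (zeitgeber time, ZT), with lights off from ZT12. There were 4 WT and 4 KO libraries at ZT0, 5 and 7 at ZT6, 6 and 4 at ZT12, and 4 of each at ZT18. Each library pooled the cells of 2 mice, so p-values measure the spread between such pools.

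Neurons differ from glia by the proteins with which they release transmitter, extend axons and process their RNA. Synaptic vesicle proteins (Snap25, Syt1, Syn1, Syp) carry out and regulate exocytosis, microtubule and neurofilament proteins (Tubb3, Map2, Nefl, Nefm, Nefh) build the axon and dendrites, and RNA-binding proteins of the Elavl, Rbfox and Celf families set neuronal splicing and mRNA stability. Vesicular glutamate transporters and Neurod factors mark excitatory neurons, while Gad enzymes, the GABA transporter Slc32a1 and Dlx factors mark inhibitory neurons and their precursors. OPCs arise in part from the same ventral forebrain progenitors that express Dlx genes, receive synapses from neurons, and are themselves known to transcribe some genes of this list, Map2 and Gap43 among them. In a bulk sample, fewer cells of a type and less RNA per cell cannot be told apart, and neither can RNA of neurons that came through the panning and RNA made by the OPCs themselves.

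The clock gene itself gave no check of the labels. Arntl, in CPM (read counts scaled to the library total), ranged from 19.3 to 33.2 CPM in WT and from 17.7 to 23.4 CPM in KO (log2 fold change -0.17 over all times, SE 0.06, adjusted p = 0.183), but counts per gene include exons outside the deleted part. The depth of a library was 19.376 to 39.007 M counts (M for mega; median 25.9 M), and CPM values are scaled by TMM factors, which correct for RNA composition. In 8 libraries ribosomal RNA took 0.124% to 0.309% of counts, against 0.470% to 1.40% in the other 30. These low-rRNA libraries comprised the whole KO ZT18 group, replicate 7 of KO ZT6 and replicates 4, 5 and 6 of WT ZT12, so at ZT18 the rRNA class and the genotype cannot be told apart. Within KO, ZT18 and the rRNA class can hardly be told apart either. The labels state that both sexes were pooled, yet 13 libraries held RNA of 1 sex, among them 4 of the 6 WT ZT12 libraries, 3 of the 7 KO ZT6 libraries, 2 of the 4 WT ZT18 libraries and none of the 4 KO ZT12 libraries. OPC markers were high in every library, with Pdgfra between 2975 and 5106 CPM. The summed level of 12 microglia and macrophage markers was 9499 CPM at the median library, that of 12 OPC markers 15741 CPM, of 10 astrocyte markers 1594 CPM, of 10 oligodendrocyte markers 459 CPM and of the 35 neuronal genes 2263 CPM.

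Neuronal transcripts were present in every library, and the genes of axon growth and microtubules stood highest. On the scale of CPM per kb of the deposited gene length, which allows genes to be compared, Tubb3 averaged 74.7, Gap43 63.6, Map2 41.7 and Dcx 33.3. Syn1 was the highest synaptic vesicle gene at 19.4, Elavl3 the highest RNA-binding gene at 18.2, Dlx1 the highest inhibitory gene at 14.4 and Nrgn the highest excitatory gene at 6.59 CPM per kb. At the low end stood Tbr1 at 0.924, Neurod2 at 0.960, Neurod6 at 0.962, Slc17a6 at 0.992 and Nefh at 0.283 CPM per kb. The median of the 35 was 4.67 CPM per kb, against 2.71 over all genes tested, and 24 of the 35 lay above the latter.

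**Figure D1:**
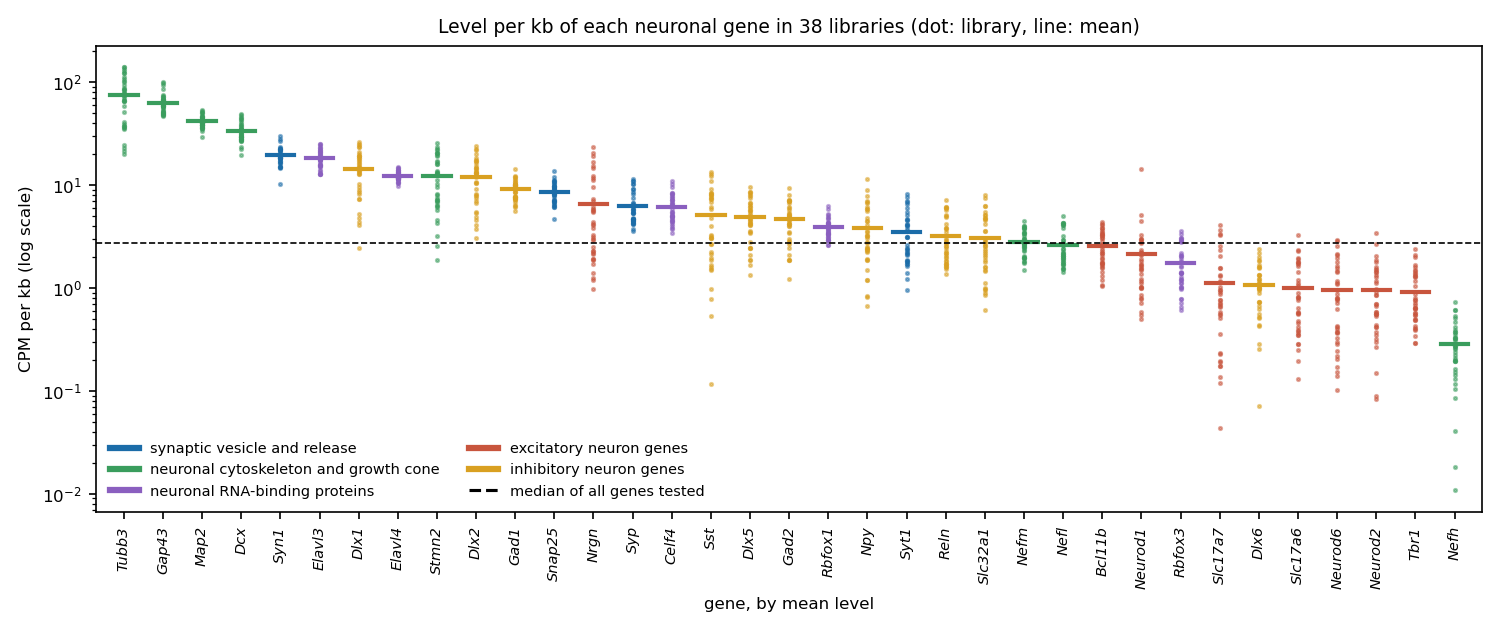
Level of each of the 35 neuronal genes in the 38 libraries, in CPM per kb of gene length on a log axis, ordered by the mean (line) with 1 dot per library and colours for the 5 role groups. Cytoskeletal genes lead, from Tubb3 at 74.7 CPM per kb, and the transcription factors and transporters of excitatory neurons sit below the dashed median of all genes, with a wider scatter between libraries.

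Libraries of a group spread more for some of these genes than for others. The within-group SD of log2 CPM had a median of 0.57 over the 35 genes and of 0.38 over all genes tested. Elavl4, an mRNA-stabilising protein of postmitotic neurons, was the steadiest with an SD of 0.14, followed by Map2 with 0.17. Slc17a7, Sst, Neurod2 and Neurod6 scattered most, with SDs of 1.05, 1.04, 1.03 and 1.00. The steady genes were abundant (485 to 880 CPM for Map2 over all 38 libraries), whereas Slc17a7 ran from 0.234 to 21.9 CPM and Sst from 0.0855 to 9.58 CPM. Nefh, the rarest gene, had 1 read in its lowest library and 30.6 reads on average.

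**Figure D2:**
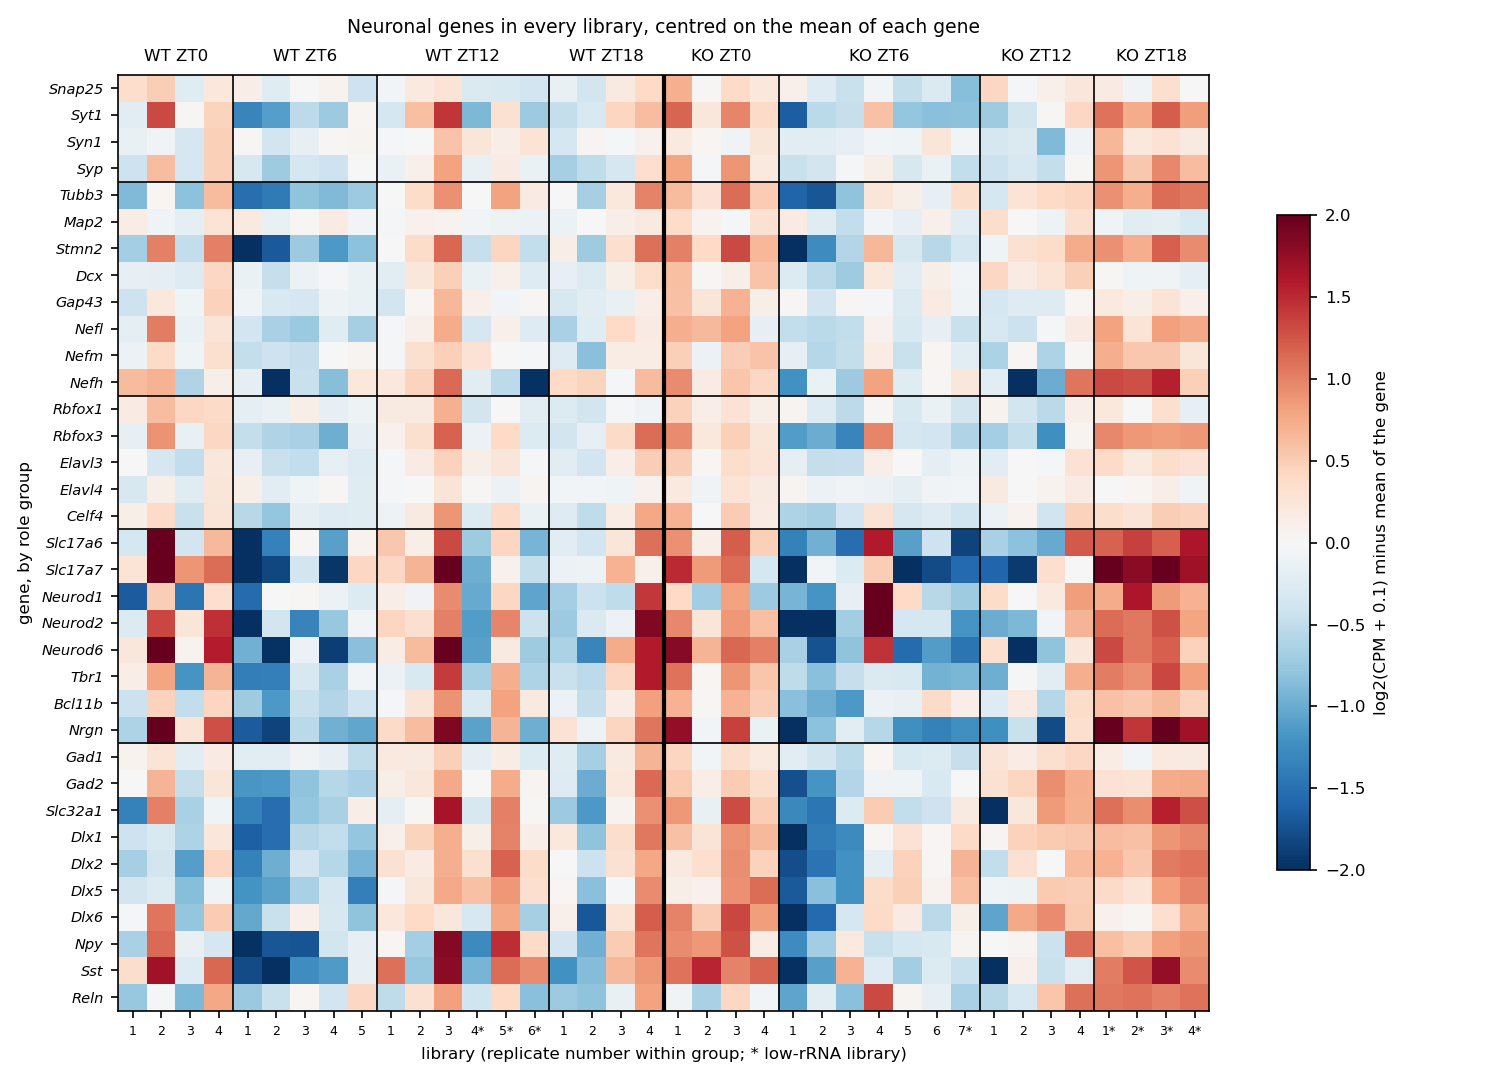
Log2 CPM (0.1 added) of the 35 neuronal genes minus each gene's mean over the 38 libraries, with libraries in columns by genotype, time and replicate, genes in rows by role, and colours limited at 2 log2 units in either direction. The ZT6 columns of both genotypes are mostly below the gene means, the KO ZT18 columns mostly above them, and KO ZT6 replicate 4 stands out as a high column within its group.

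Across the 8 comparisons made, the neuronal genes differed mainly between times of day, and more of them passed the test within KO than within WT. Of the 35, 23 were called (adjusted p under 0.05 over all genes tested) for time in KO and 7 for time in WT. The corresponding shares over all genes tested were 21.9% and 4.91%. Between genotypes no member was called over all 4 times (share over all genes 0.0921%), at ZT0 (0.285%) or at ZT6 (0.0132%), and at an unadjusted p under 0.05 there were 10, 7 and 3. DESeq2 also called none in these 3 comparisons, and limma-voom none. At ZT12 only Syn1 was called, lower in KO, beside 5% of all genes. At ZT18 only Syp was called, higher in KO, beside 2.14% of all genes. Syn1, Syp and Nefm were called for dependence of the genotype difference on the time (interaction), that is 3 of 35 beside 9.19% of all genes. The counts of called genotype differences and interactions are thus close to or below the background, while those of time are above it.

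Direction of the genotype difference, whether called or not, varied with the hour. The median log2 fold change (KO over WT) of the 35 was 0.19 over all times with 32 positive, 0.25 at ZT0 with 30 positive, 0.16 at ZT6 with 29 positive, -0.28 at ZT12 with 10 positive and 0.51 at ZT18 with 33 positive. Medians over all genes tested lay between -0.05 and 0.00 at the single times. Leaving out 1 library moved the members' median by over 1.5 times in some fits. Over all 38 such fits it ran from 0.12 to 0.27 over all times, lowest without KO ZT12 replicate 4. At ZT0 it ran from 0.10 to 0.45, moved most by WT ZT0 replicates 3 and 2 and also by WT replicate 1 and KO replicate 1. At ZT6 it ran from 0.01 to 0.34, moved most by KO ZT6 replicate 4 and WT ZT6 replicate 5 and also by WT replicate 2 and KO replicate 1. At ZT12 it ran from -0.40 to -0.01, moved most by WT ZT12 replicate 3 and also by WT replicate 5 and KO replicate 1. At ZT18 it ran from 0.29 to 0.865, without WT ZT18 replicates 2 and 4. Without the low-rRNA libraries, where KO ZT18 drops out, the median was -0.45 at ZT12 and 0.04 over ZT0, ZT6 and ZT12 together. The 0.04 leaves ZT18 out and so is not the same measure as the 0.19 over all times. Without the single-sex libraries the median was 0.11 at ZT0, 0.34 at ZT6 and -0.14 at ZT12. At ZT6 it was 0.27 with the rRNA class as a covariate and 0.24 with the replicate block, and at ZT12 -0.18 with limma-voom. The sign was positive or negative as stated in all of these fits. At ZT18 every KO library exceeded every WT library for 10 of the 35 (Syt1, Syn1, Syp, Nefm, Slc17a6, Slc17a7, Nrgn, Slc32a1, Sst and Reln), beside 10.4% of all genes. At ZT0 this held for 2 of the 35 (Dlx1 and Dlx5), beside 2.6% of all genes, and at ZT12 every KO library was below every WT library for Syn1 alone, beside 3.15% of all genes.

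**Figure D3:**
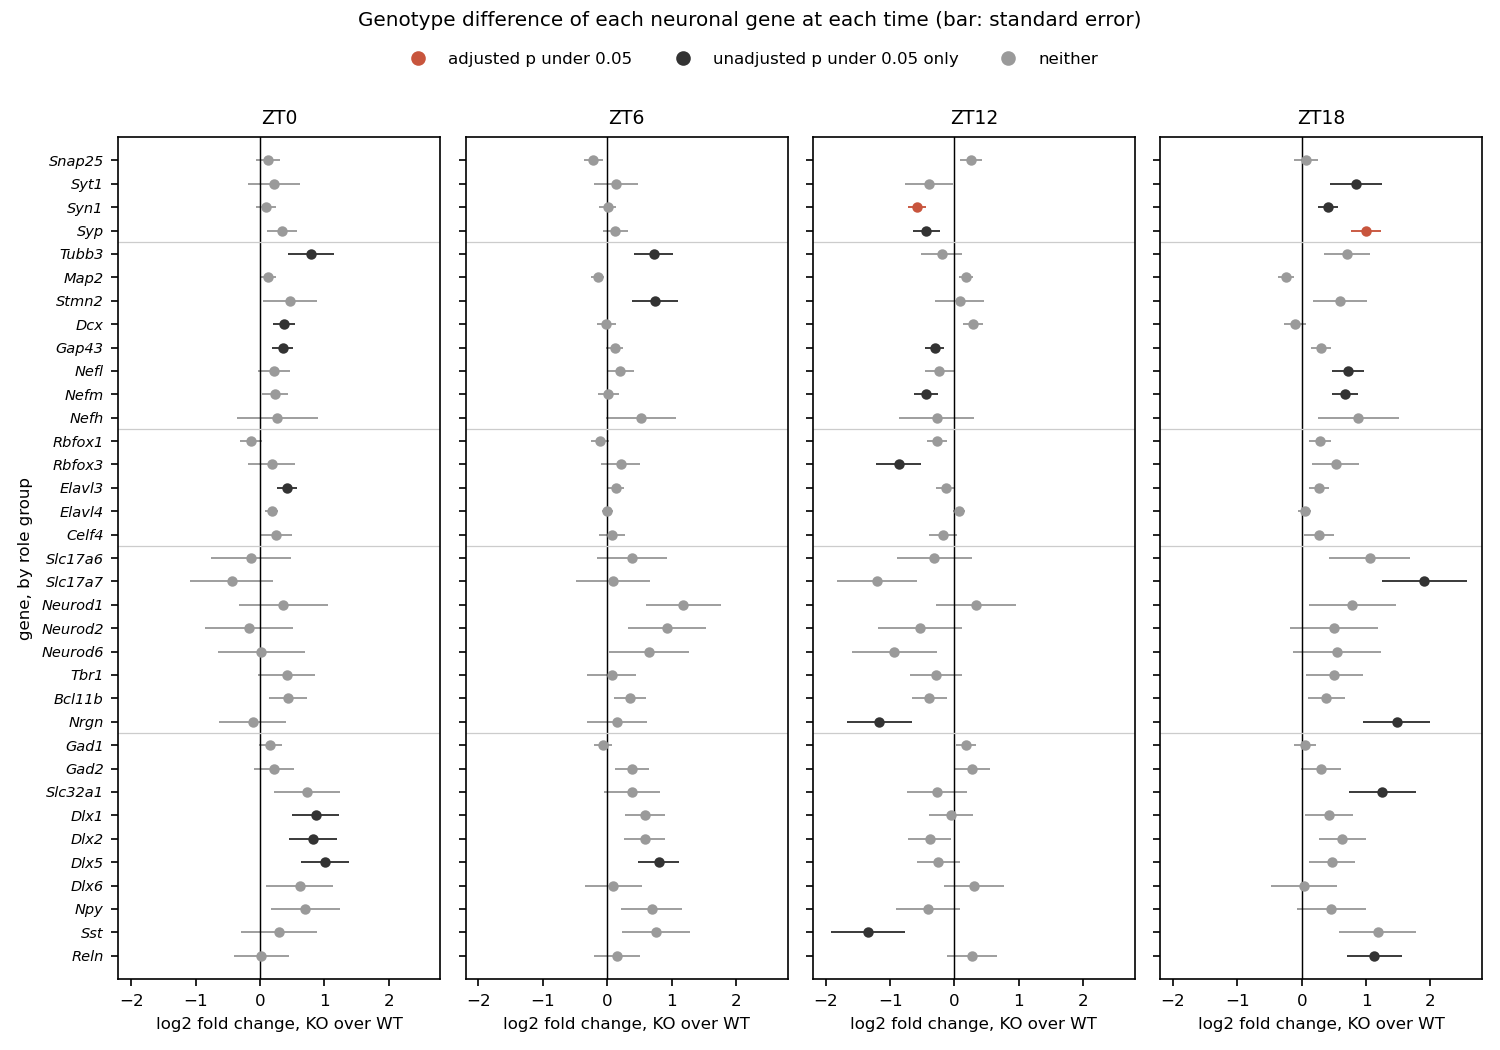
Log2 fold change (KO over WT) of the 35 neuronal genes at each time, with the standard error as a bar and genes ordered by role. Points lie mostly right of 0 at ZT18 (33 of 35 positive) and left of 0 at ZT12 (10 of 35 positive), and the adjusted p is under 0.05 only for Syn1 at ZT12 and Syp at ZT18.

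Other cells moved in some of the same comparisons, and their part in the neuronal differences was not tested. At ZT18 the summed level of the 10 oligodendrocyte markers was 434 to 513 CPM in WT and 638 to 839 CPM in KO, with 4 of the 9 tested called higher and Opalin not tested. The 7 red blood cell markers summed to 3091 to 3516 CPM in WT and 4651 to 7812 CPM in KO, with 0 of 7 called but 7 of 7 positive. The 11 endothelial and mural markers summed to 106 to 194 CPM in WT and 231 to 357 CPM in KO with none called, and the 7 choroid plexus and ependymal markers to 24.9 to 113 CPM and 175 to 443 CPM with none called. Microglia and macrophage markers summed to 4481 to 12271 CPM in WT and 9755 to 13598 CPM in KO, also with none of 12 called. At ZT0 0 of these 12 microglia markers had a positive log2 fold change and none was called (median -0.36). Their sums there were 5463 to 12845 CPM in WT and 3720.5 to 7594 CPM in KO. Of these lists, Mal and Opalin (oligodendrocytes) and Folr1, Ccdc153 and Tmem212 (choroid plexus and ependyma) were at 0 CPM in at least 1 library. At ZT12, 3 of the 12 OPC markers were called lower in KO. Between times in WT, 7 of 10 astrocyte markers and 5 of 7 red blood cell markers were called, and the summed astrocyte level was 956 to 1592 CPM at ZT6 against 1273 to 2308 CPM at ZT12. Between times in KO, calls were made for 6 of 12 OPC, 6 of 9 oligodendrocyte, 7 of 12 microglia, 8 of 10 astrocyte, 6 of 11 endothelial and mural, 7 of 7 red blood cell and 3 of 7 choroid plexus markers. The shares called over all genes tested were 0.285% at ZT0, 5% at ZT12 and 2.14% at ZT18. They were 4.91% for time in WT and 21.9% for time in KO.

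Synaptic vesicle genes held both genotype calls at a single time, Syn1 at ZT12 and Syp at ZT18. Of the 4 genes 2, again Syn1 and Syp, were called for the interaction, and all 4 for time in KO, while 0 of 4 were called for time in WT. Over all genes tested these shares were 9.19%, 21.9% and 4.91%. Syn1 encodes synapsin I, a phosphoprotein that tethers vesicles to the actin cytoskeleton, and Syp encodes synaptophysin, the abundant vesicle membrane protein. Syn1 (ENSMUSG00000037217) lies on the minus strand at chrX:20860511-20921004 and Syp (ENSMUSG00000031144) on the plus strand at chrX:7638471-7653256 (GRCm38). Their upstream sequences are shown because these are the 2 genes of the list with a genotype call at a single time. Each is printed 5′ to 3′ on the gene's strand from RefSeq (GRCm38.p6), as the bases of the 250 before the RefSeq start that lie outside the gene's span in the deposited table, which leaves 164 bases at chrX:20921005-20921168 for Syn1 and 141 bases at chrX:7638330-7638470 for Syp. Capitals mark TGACGTCA, the palindromic cAMP response element.
Syn1 upstream: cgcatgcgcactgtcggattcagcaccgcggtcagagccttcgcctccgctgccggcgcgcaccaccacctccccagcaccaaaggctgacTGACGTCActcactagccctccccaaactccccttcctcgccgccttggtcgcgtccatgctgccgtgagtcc
Syp upstream: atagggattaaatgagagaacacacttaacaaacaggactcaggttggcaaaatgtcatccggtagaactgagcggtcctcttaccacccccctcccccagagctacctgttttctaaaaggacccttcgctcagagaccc
The element begins at position -159 relative to the Syn1 start and was not found in the 250 bases of Syp. Over the 26 members with a RefSeq window it was present in 2 (Syn1 and Sst), and over 27025 genes with a window in 1.77%. A match says only that these letters are there.

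Syn1 in WT measured 49.6, 56.9, 60.1 and 87.8 CPM at ZT0, 48.2, 56.2, 63.7, 64.1 and 65.6 CPM at ZT6, from 61.3 to 93.2 CPM (median 72.00) at ZT12 and 49.03, 61.6, 65.2 and 66.8 CPM at ZT18. In KO Syn1 measured 60.01, 64.4, 71.8 and 74.2 CPM at ZT0, from 53.9 to 74.3 CPM (median 59.3) at ZT6, 34.1, 49.6, 51.2 and 59.9 CPM at ZT12 and 71.4, 72.97, 77.3 and 99.8 CPM at ZT18. At ZT12 the 4 KO libraries were all below the 6 WT libraries, and at ZT18 the 4 KO libraries were all above the 4 WT libraries. Syn1 fell in KO at ZT12, 1.49-fold lower on the fitted scale (log2 fold change -0.58, SE 0.14, adjusted p = 0.0158, edgeR quasi-likelihood test with Benjamini-Hochberg adjustment, as throughout). At ZT18 the difference was positive but not called (log2 fold change 0.41, SE 0.16, adjusted p = 0.145), and the interaction was called (adjusted p = 0.0117). The 3 higher-rRNA WT ZT12 libraries (61.3, 62.3 and 93.2 CPM) also all exceeded the 4 KO libraries, which are of the same rRNA class. The ZT12 call was lost without KO ZT12 replicate 1 or 3. Over the fits that leave out 1 library the log2 fold change was -0.70 to -0.44 and the adjusted p 0.00658 to 0.118. Leaving out the low-rRNA libraries gave -0.57 (adjusted p = 0.257), and leaving out the single-sex ones gave -0.57 (adjusted p = 0.0701), neither of which was called.

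Syp in WT measured 23.2, 24.5, 43.2 and 47.4 CPM at ZT0, 18.8, 23.2, 24.1, 24.6 and 30.7 CPM at ZT6, from 27.9 to 53.9 CPM (median 30.6) at ZT12 and 19.5, 21.8, 24.5 and 39.1 CPM at ZT18. In KO Syp measured 29.9, 35.4, 53.4 and 56.8 CPM at ZT0, from 21.96 to 33.6 CPM (median 24.8) at ZT6, 22.3, 22.8, 24.7 and 31.3 CPM at ZT12 and 44.7, 47.6, 57.1 and 60.4 CPM at ZT18. At ZT18 the lowest KO library was above the highest WT library, whereas at ZT12 the groups overlapped with 3 of the 4 KO libraries below all WT libraries. Syp rose in KO at ZT18, 1.997-fold (log2 fold change 1.00, SE 0.23, adjusted p = 0.0205), with a negative difference that was not called at ZT12 (log2 fold change -0.44, SE 0.21, adjusted p = 0.239) and a called interaction (adjusted p = 0.0154). All 4 KO ZT18 libraries were of the low-rRNA class and all 4 WT ZT18 libraries of the other, so no value within a class exists. The same KO libraries had the higher marker sums of oligodendrocytes, red blood cells, vessels and choroid plexus given above, and their part in the Syp difference was not tested. With the rRNA class as a covariate the Syp difference was 1.33 (adjusted p = 0.171). Leaving out the single-sex libraries it was 1.20 (adjusted p = 0.147). The call was also lost without any 1 of WT ZT18 replicates 1, 2 and 3 or KO ZT18 replicates 1, 3 and 4. Over all 38 fits that leave out 1 library the adjusted p ran from 0.0158 to 0.0747. An antisense gene, Gm14703, shares 16.8% of the Syp exon bases in GENCODE M21, and its reads cannot be told apart from those of Syp without a stated strand setting.

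Both genes differed between times in KO, with group means lowest at ZT12 and highest at ZT18. The ratio of these means was 1.65 for Syn1 (adjusted p = 0.00584) and 2.08 for Syp (adjusted p = 0.000670). In WT the ratios of highest to lowest group mean were 1.22 and 1.43 and neither gene was called (adjusted p = 0.466 and 0.249). All KO ZT18 libraries are low-rRNA. With the rRNA class as a covariate the Syn1 call for time in KO was lost and the Syp call kept. The same held without the low-rRNA libraries, where KO ZT18 drops out.

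Snap25, the SNARE protein of vesicle fusion, and Syt1, the calcium sensor of release, also differed between times in KO but were not called for genotype. Snap25 in KO measured 58.02, 66.2, 74.8 and 93.9 CPM at ZT0, from 31.8 to 61.4 CPM (median 47.1) at ZT6, 55.6, 61.8, 66.99 and 76.04 CPM at ZT12 and 54.7, 57.3, 64.1 and 71.3 CPM at ZT18. Snap25 in WT measured 48.3, 66.6, 73.1 and 80.9 CPM at ZT0 and 42.96, 48.5, 56.7, 59.95 and 62.8 CPM at ZT6. Snap25 in WT measured from 43.7 to 69.2 CPM (median 51.1) at ZT12 and 44.3, 51.6, 65.2 and 75.4 CPM at ZT18. KO ZT6 held the low values and KO ZT0 the high ones, with an overlap of 1 ZT0 library (mean ratio 1.57, adjusted p = 0.0128). Syt1 in KO measured 29.9, 33.3, 50.1 and 56.9 CPM at ZT0, from 8.03 to 38.2 CPM (median 14.8) at ZT6, 15.5, 19.6, 25.9 and 33.9 CPM at ZT12 and 42.5, 45.3, 54.2 and 58.8 CPM at ZT18. Syt1 in WT measured 22.00, 25.9, 34.6 and 63.9 CPM at ZT0 and 10.1, 11.8, 15.4, 17.7 and 26.2 CPM at ZT6. Syt1 in WT measured from 13.6 to 68.8 CPM (median 25.7) at ZT12 and 18.2, 20.5, 34.3 and 38.9 CPM at ZT18. All 4 KO ZT18 libraries lay above every KO ZT6 and ZT12 library, and a single ZT6 library, replicate 4, was set apart from the other 6 of its group (mean ratio of ZT18 to ZT6 2.79, adjusted p = 0.00629). At ZT18 the Syt1 difference between genotypes was 0.84 (SE 0.40, adjusted p = 0.259) and that of Snap25 0.06 (SE 0.18, adjusted p = 0.893).

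**Figure D4:**
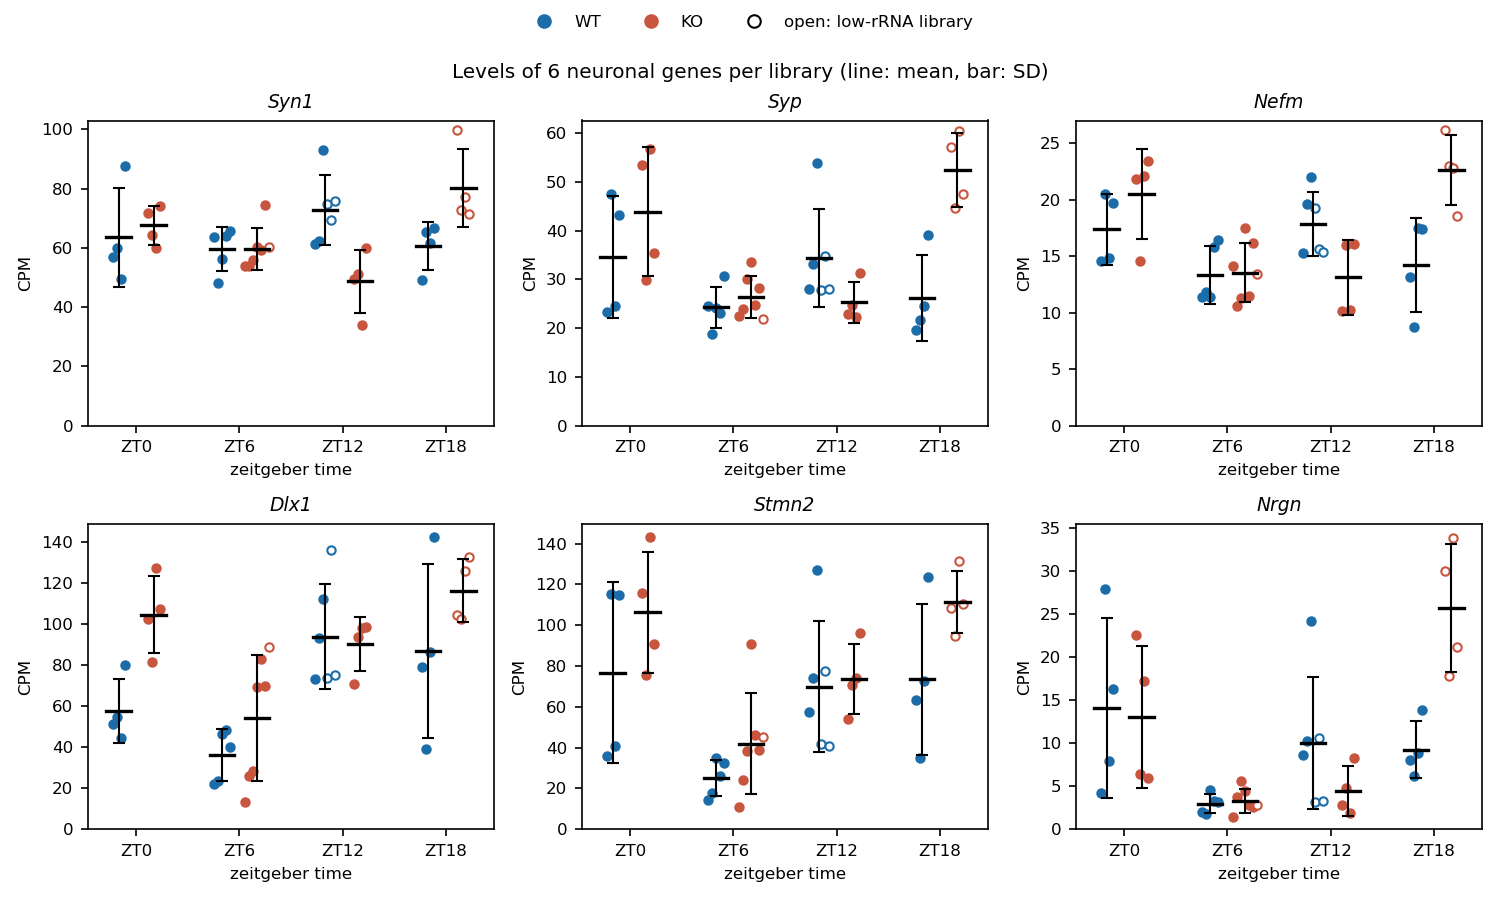
CPM of 6 neuronal genes in each library by time, WT in blue and KO in red, with the group mean (line) and SD (bar) and open circles for the 8 low-rRNA libraries. Syn1 in KO lies below WT at ZT12, Syp and Nefm in KO lie above WT at ZT18, where all KO circles are open, and Dlx1, Stmn2 and Nrgn are low at ZT6 in both genotypes, Dlx1 with 2 separate sets of KO libraries there.

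Cytoskeletal and growth cone genes differed between times in KO for 7 of the 8, Nefh being the exception. In WT 2 of the 8, Tubb3 and Stmn2, were called, and Nefm was the 1 gene called for the interaction. Of all genes tested, 21.9% were called for time in KO, 4.91% in WT and 9.19% for the interaction. None of the 8 was called for genotype at any single time. Tubb3 encodes a beta-tubulin of neurons, and Stmn2 encodes stathmin 2, which destabilises microtubules in growth cones.

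Tubb3 in WT measured 66.1, 69.4, 126 and 189 CPM at ZT0, 42.7, 45.6, 66.4, 69.8 and 74.00 CPM at ZT6, from 123 to 229.8 CPM (median 147) at ZT12 and 77.2, 123, 141 and 242 CPM at ZT18. In KO Tubb3 measured 149, 174, 190.2 and 264 CPM at ZT0, from 37.1 to 156 CPM (median 109) at ZT6, 96.1, 148, 162 and 164 CPM at ZT12 and 202, 229, 254 and 265 CPM at ZT18. In WT every ZT12 and ZT18 library exceeded every ZT6 library, and in KO every ZT18 library exceeded every ZT6 and ZT12 library, while the 7 KO ZT6 libraries overlapped with both the WT ZT6 and the KO ZT12 libraries. The highest group mean was 2.74 times that of ZT6 in WT (ZT12, adjusted p = 0.0157) and 2.42 times in KO (ZT18, adjusted p = 0.0121). Over all times KO was not called higher (log2 fold change 0.50, SE 0.17, adjusted p = 0.146), but without WT ZT0 replicate 4 it was (log2 fold change 0.59, adjusted p = 0.0432), and so it was at ZT0 alone (1.15, adjusted p = 0.0469). That fit also called more of all genes, 633 (2.69%) over all times and 2208 (9.37%) at ZT0, against 21 and 65 with all 38 libraries.

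Stmn2 in WT measured 35.9, 40.6, 115 and 115 CPM at ZT0, 14.3, 17.9, 25.9, 32.4 and 34.6 CPM at ZT6, from 40.6 to 127 CPM (median 65.8) at ZT12 and 34.9, 63.1, 72.6 and 123 CPM at ZT18. In KO Stmn2 measured 75.6, 90.6, 116 and 143 CPM at ZT0, from 10.6 to 90.5 CPM (median 38.9) at ZT6, 53.8, 70.7, 74.1 and 95.97 CPM at ZT12 and 94.9, 108, 110.2 and 131 CPM at ZT18. Every WT library of the other times was above every WT ZT6 library, by a narrow margin for the lowest of them, and every KO ZT18 library was above every KO ZT6 library. The mean at ZT0 was 3.07 times that at ZT6 in WT (adjusted p = 0.0249), and the mean at ZT18 was 2.65 times that at ZT6 in KO (adjusted p = 0.0125).

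Nefm and Nefl encode the medium and light neurofilament chains, which pack axons and increase as axons mature. Nefm (ENSMUSG00000022054, chr14:68082590-68124846, minus strand) and Nefl (chr14:68083863-68089095, plus strand) overlap in the GENCODE M21 annotation, where the span of Nefl lies within that of Nefm, sharing 1108 exon bases, 19.2% of Nefm and 32.8% of Nefl, so part of their counts may not be separable. Nefm in WT measured 14.5, 14.8, 19.7 and 20.5 CPM at ZT0, 11.3, 11.3, 11.8, 15.8 and 16.4 CPM at ZT6, from 15.3 to 22.02 CPM (median 17.5) at ZT12 and 8.74, 13.2, 17.4 and 17.5 CPM at ZT18. In KO Nefm measured 14.6, 21.9, 22.1 and 23.4 CPM at ZT0, from 10.6 to 17.5 CPM (median 13.4) at ZT6, 10.2, 10.3, 15.99 and 16.1 CPM at ZT12 and 18.6, 22.8, 22.96 and 26.1 CPM at ZT18. The 4 KO ZT18 libraries were above all 4 WT ZT18 libraries and above all KO ZT6 and ZT12 libraries. Nefm was called for the interaction (adjusted p = 0.0334) with -0.45 at ZT12 (SE 0.19, adjusted p = 0.159) and 0.67 at ZT18 (SE 0.20, adjusted p = 0.0621). The interaction call was lost in 9 of the 38 fits that leave out 1 library, with adjusted p up to 0.105. These left out WT ZT12 replicate 3 or 4, WT ZT18 replicate 1 or 2, KO ZT12 replicate 1 or 3, or KO ZT18 replicate 1, 2 or 3. Under RLE scaling its adjusted p was 0.0531.

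Nefl in KO measured 7.32, 12.97, 13.8 and 14.5 CPM at ZT0, from 5.63 to 8.81 CPM (median 6.01) at ZT6, 6.07, 6.61, 8.12 and 9.22 CPM at ZT12 and 9.98, 14.03, 14.5 and 14.6 CPM at ZT18. Nefl in WT measured 7.25, 7.52, 9.92 and 16.95 CPM at ZT0 and 4.88, 5.18, 5.24, 6.33 and 6.96 CPM at ZT6. Nefl in WT measured from 6.54 to 13.8 CPM (median 8.48) at ZT12 and 5.23, 6.96, 9.26 and 10.9 CPM at ZT18. KO ZT18 was above KO ZT6 in every library (mean ratio 2.01, adjusted p = 0.00176), and the ZT18 difference between genotypes was 0.71 (SE 0.25, adjusted p = 0.106). Nefh, the heavy chain, which appears last in development, was the lowest gene of the list at 0.0426 to 2.15 CPM in WT and 0.0732 to 2.91 CPM in KO.

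Map2, Dcx and Gap43 had a different course over the day in KO, with the highest group mean at ZT0 rather than ZT18. Map2, a dendritic microtubule-associated protein, measured in KO 659, 710.4, 836 and 879.7 CPM at ZT0, from 485 to 763 CPM (median 609) at ZT6, 637, 682, 849 and 872 CPM at ZT12 and 549.6, 590.5, 603 and 639.5 CPM at ZT18. Map2 in WT measured 594, 645, 756 and 826 CPM at ZT0 and 614, 658, 687, 763 and 771 CPM at ZT6. Map2 in WT measured from 629.7 to 721 CPM (median 660.0) at ZT12 and 627, 677, 742 and 772 CPM at ZT18. Its 4 KO ZT18 libraries were below all 4 KO ZT0 libraries, and the range of means was small (ratio 1.29, adjusted p = 0.0255). Dcx, doublecortin, a microtubule protein of migrating young neurons, measured in KO 420.0, 449.5, 609 and 625 CPM at ZT0, from 251 to 478 CPM (median 352) at ZT6, 464, 499, 549 and 577 CPM at ZT12 and 362, 389, 394 and 421 CPM at ZT18. Dcx in WT measured 344, 358, 370.1 and 552 CPM at ZT0 and 299, 375, 377, 379.6 and 408 CPM at ZT6. Dcx in WT measured from 344 to 572 CPM (median 408) at ZT12 and 340.0, 369, 448 and 526 CPM at ZT18. KO ZT6 held the low values, with a partial overlap (ratio of ZT0 to ZT6 1.44, adjusted p = 0.0150). Gap43, a growth cone membrane protein, measured in KO 103, 113, 142 and 153 CPM at ZT0, from 72.9 to 106 CPM (median 92.1) at ZT6, 74.2, 78.99, 79.5 and 97.5 CPM at ZT12 and 102, 102, 109 and 115 CPM at ZT18. Gap43 in WT measured 71.3, 89.8, 109 and 130.2 CPM at ZT0 and 75.3, 76.6, 86.9, 88.9 and 89.3 CPM at ZT6. Gap43 in WT measured from 73.4 to 150.3 CPM (median 97.3) at ZT12 and 76.1, 81.3, 85.2 and 105 CPM at ZT18. Every KO ZT0 and ZT18 library exceeded every KO ZT12 library (ratio of ZT0 to ZT12 1.55, adjusted p = 0.0111). The call for Map2 was lost without any 1 of KO ZT0 replicates 1 and 4, KO ZT12 replicates 1 and 4 and KO ZT18 replicate 4, and that for Gap43 without KO ZT0 replicate 3.

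Among RNA-binding genes, for time in KO 3 of the 5 (Rbfox3, Elavl3 and Celf4) were called, beside 21.9% of all genes tested. For time in WT none was, beside 4.91%, and none was called for genotype or the interaction. Elavl3, which encodes HuC, an mRNA-binding protein of early neurons, measured in WT 87.8, 97.7, 124 and 144 CPM at ZT0, 87.7, 90.6, 103, 109 and 110.2 CPM at ZT6, from 119.7 to 169.8 CPM (median 136) at ZT12 and 93.99, 107, 135 and 173 CPM at ZT18. In KO Elavl3 measured 126, 148, 157 and 173 CPM at ZT0, from 88.9 to 135 CPM (median 109) at ZT6, 106, 121, 123 and 149.9 CPM at ZT12 and 141, 151, 158 and 161 CPM at ZT18. The 4 KO ZT18 libraries were all above the 7 KO ZT6 libraries, a mean ratio of 1.39 (adjusted p = 0.0186), and WT gave a ratio of 1.38 between ZT12 and ZT6 (adjusted p = 0.118). At ZT0 3 of the 4 KO libraries were above all 4 WT libraries (log2 fold change 0.42, SE 0.16, adjusted p = 0.139), and without WT ZT0 replicate 4 Elavl3 was called there (log2 fold change 0.54, adjusted p = 0.0302), as was Dcx (0.55, adjusted p = 0.0483). In that fit 9.37% of all genes were called at ZT0, against 0.285% with all libraries.

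Rbfox3 encodes NeuN, the splicing regulator used as a stain of mature neurons. In KO Rbfox3 measured 10.5, 10.7, 12.6 and 17.6 CPM at ZT0, from 3.57 to 17.9 CPM (median 5.93) at ZT6, 3.82, 5.64, 6.48 and 9.39 CPM at ZT12 and 16.2, 16.5, 16.7 and 17.7 CPM at ZT18. Rbfox3 in WT measured 8.100, 8.18, 12.1 and 16.99 CPM at ZT0 and 4.58, 5.77, 5.92, 6.47 and 8.06 CPM at ZT6. Rbfox3 in WT measured from 7.47 to 20.7 CPM (median 10.5) at ZT12 and 6.98, 8.09, 11.8 and 19.7 CPM at ZT18. The KO ZT18 values were tightly grouped above all KO ZT12 libraries and above all KO ZT6 libraries but replicate 4, the highest (ratio of ZT18 to ZT12 2.65, adjusted p = 0.00556). Celf4, a regulator of translation and splicing in neurons, measured in KO 50.9, 56.95, 72.6 and 82.4 CPM at ZT0, from 32.03 to 62.01 CPM (median 39.02) at ZT6, 38.6, 46.9, 53.6 and 70.1 CPM at ZT12 and 61.1, 64.9, 70.3 and 71.9 CPM at ZT18. Celf4 in WT measured 37.5, 55.4, 61.1 and 66.3 CPM at ZT0 and 29.7, 34.8, 42.6, 43.1 and 44.4 CPM at ZT6. Celf4 in WT measured from 42.2 to 93.7 CPM (median 52.5) at ZT12 and 35.6, 42.7, 56.4 and 87.4 CPM at ZT18. Again KO ZT6 replicate 4 reached the ZT18 values, and the other 6 did not (ratio of ZT18 to ZT6 1.63, adjusted p = 0.0248). The call was lost without KO ZT0 replicate 1 or KO ZT6 replicate 2. Rbfox1, a splicing factor, ranged over 12.9 to 27.6 CPM in WT and 11.5 to 23.1 CPM in KO, and Elavl4, encoding HuD, over 53.4 to 79.4 CPM and 58.4 to 80.6 CPM, with adjusted p for time in KO of 0.0606 and 0.148.

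Excitatory genes included the widest ranges over the day in KO, led by Nrgn and Slc17a7. In KO 4 of the 8 (Slc17a7, Tbr1, Bcl11b and Nrgn) were called for time, beside 21.9% of all genes tested, and in WT Nrgn alone, beside 4.91%. None was called for genotype or the interaction, although 8 of the 8 had positive log2 fold changes at ZT18 and 7 of the 8 negative ones at ZT12. Nrgn encodes neurogranin, a calmodulin-binding postsynaptic protein of forebrain principal neurons, and Slc17a7 encodes VGLUT1, which loads glutamate into vesicles of cortical neurons.

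Nrgn in WT measured 4.23, 7.96, 16.2 and 27.9 CPM at ZT0, 1.75, 2.02, 3.15, 3.31 and 4.51 CPM at ZT6, from 3.09 to 24.2 CPM (median 9.41) at ZT12 and 6.14, 8.08, 8.85 and 13.9 CPM at ZT18. In KO Nrgn measured 5.99, 6.35, 17.2 and 22.5 CPM at ZT0, from 1.41 to 5.61 CPM (median 2.76) at ZT6, 1.84, 2.76, 4.79 and 8.32 CPM at ZT12 and 17.8, 21.2, 29.96 and 33.8 CPM at ZT18. The 4 KO ZT18 libraries were above all 4 WT ZT18 libraries and above all KO ZT6 and ZT12 libraries, and at ZT12 the 2 lowest of 6 WT libraries, replicates 4 and 6, were both of the low-rRNA class. Its mean at ZT18 was 7.79 times that at ZT6 in KO (adjusted p = 8.2e-05), and its mean at ZT0 was 4.77 times that at ZT6 in WT (adjusted p = 0.0281). Between genotypes Nrgn stood at -1.17 at ZT12 (SE 0.50, adjusted p = 0.173) and 1.47 at ZT18 (SE 0.52, adjusted p = 0.117), with an interaction at adjusted p = 0.0745. The WT call was lost without WT ZT0 replicate 2 or any 1 of WT ZT6 replicates 1, 2, 4 and 5.

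Slc17a7 in WT measured 4.67, 7.25, 8.46 and 19.7 CPM at ZT0, 0.234, 0.934, 1.02, 2.93 and 5.21 CPM at ZT6, from 1.92 to 18.1 CPM (median 4.63) at ZT12 and 3.56, 3.58, 4.14 and 6.33 CPM at ZT18. In KO Slc17a7 measured 3.01, 7.04, 8.49 and 11.1 CPM at ZT0, from 0.641 to 5.48 CPM (median 1.26) at ZT6, 0.951, 1.23, 3.87 and 4.89 CPM at ZT12 and 12.7, 13.8, 17.6 and 21.9 CPM at ZT18. The 4 KO ZT18 libraries were above all 4 WT ZT18 libraries and above the other 15 KO libraries. The ratio of the ZT18 to the ZT6 mean in KO was 7.19 (adjusted p = 0.00147), and the ZT18 difference between genotypes, the largest log2 fold change of any member at any time, was not called (log2 fold change 1.90, SE 0.66, adjusted p = 0.108). Slc17a6, encoding VGLUT2 of subcortical neurons, was lower in every WT than in every KO library at ZT18 too, 3.09, 3.49, 4.82 and 8.83 CPM against 9.33, 9.48, 10.6 and 12.8 CPM (log2 fold change 1.06, SE 0.63, adjusted p = 0.382).

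Tbr1, a transcription factor of deep-layer cortical neurons, measured in KO 4.43, 6.36, 8.08 and 9.25 CPM at ZT0, from 2.19 to 3.53 CPM (median 2.99) at ZT6, 2.14, 3.71, 4.21 and 7.25 CPM at ZT12 and 7.69, 8.199, 8.86 and 11.1 CPM at ZT18. Tbr1 in WT measured 1.86, 4.75, 6.96 and 7.51 CPM at ZT0 and 1.59, 1.62, 2.71, 3.44 and 4.15 CPM at ZT6. Tbr1 in WT measured from 2.700 to 11.6 CPM (median 3.72) at ZT12 and 2.97, 3.15, 5.79 and 13.2 CPM at ZT18. All KO ZT18 libraries were above all KO ZT6 libraries (mean ratio 3.15, adjusted p = 0.00814). Bcl11b, encoding CTIP2 of subcortically projecting and striatal neurons, measured in KO 19.5, 26.9, 30.9 and 30.9 CPM at ZT0, from 8.53 to 24.9 CPM (median 17.2) at ZT6, 12.9, 15.9, 21.5 and 24.8 CPM at ZT12 and 26.3, 27.9, 28.6 and 30.02 CPM at ZT18. Bcl11b in WT measured 13.5, 14.2, 25.7 and 26.4 CPM at ZT0 and 8.61, 11.7, 12.7, 14.1 and 14.5 CPM at ZT6. Bcl11b in WT measured from 15.6 to 35.9 CPM (median 22.3) at ZT12 and 13.7, 17.7, 21.3 and 33.7 CPM at ZT18. The KO ZT18 libraries were again above all KO ZT6 libraries, by a small margin (mean ratio 1.802, adjusted p = 0.0298), and this call was lost in 7 of the 38 fits that leave out 1 library. The bHLH factors Neurod1, Neurod2 and Neurod6, which drive excitatory differentiation, had no call. They ranged over 1.95 to 39.4 CPM, 0.263 to 10.9 CPM and 0.220 to 5.46 CPM in KO, where the highest Neurod1 and Neurod2 values both came from ZT6 replicate 4, and over 1.37 to 12.4 CPM, 0.281 to 8.44 CPM and 0.298 to 6.24 CPM in WT.

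Inhibitory genes were the role group most often called between times in WT: 4 of the 10 (Gad2, Dlx1, Dlx2 and Dlx5), beside 4.91% of all genes tested. Each had the lowest mean at ZT6 and the highest at ZT12. With the rRNA class as a covariate, or without the single-sex libraries, Gad2 alone of these 4 was called in WT. Without the low-rRNA libraries none of the 4 was. Of the 6 WT ZT12 libraries 3 are low-rRNA and 4 single-sex. In KO 5 of the 10 (Gad1, Gad2, Slc32a1, Dlx1 and Sst) were called, beside 21.9% of all genes tested. None was called for genotype or the interaction, with 10 of the 10 positive over all times, at ZT0 and at ZT18. The Dlx genes encode homeodomain factors that specify GABAergic neurons and are active in migrating interneuron precursors. The Dlx1 and Dlx2 genes are neighbours on chromosome 2. The upstream sequence of Dlx2 and that of Reln are shown because these are the 2 members whose windows hold CACGTG, the E-box that BMAL1 and CLOCK bind. They are the 250 bases before the RefSeq start, 5′ to 3′ on the minus strand in both, at chr2:71546755-71547004 for Dlx2 and chr5:22344706-22344955 for Reln (GRCm38.p6), with the E-box in capitals.
Dlx2 upstream: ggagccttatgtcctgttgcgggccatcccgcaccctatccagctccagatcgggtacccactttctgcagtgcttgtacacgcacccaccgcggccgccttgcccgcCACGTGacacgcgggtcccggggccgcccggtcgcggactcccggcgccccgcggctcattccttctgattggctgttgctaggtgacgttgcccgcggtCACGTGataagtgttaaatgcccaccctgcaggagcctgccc
Reln upstream: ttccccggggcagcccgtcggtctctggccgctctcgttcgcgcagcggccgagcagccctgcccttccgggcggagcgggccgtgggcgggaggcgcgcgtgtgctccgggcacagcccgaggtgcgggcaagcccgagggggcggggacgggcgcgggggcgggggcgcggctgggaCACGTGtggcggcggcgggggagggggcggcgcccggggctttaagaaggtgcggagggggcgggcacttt
The boxes begin at positions -142 and -42 relative to the Dlx2 start and -71 relative to the Reln start. An E-box of this form was present in 2 of the 26 members with a window (7.69%) and in 6.86% of the 27025 genes. Over the same windows TAATTA, a core bound by homeodomain factors, was present in 4 of 26 members (Dcx, Elavl4, Slc17a6 and Tbr1) and in 5.65% of genes. All 3 motifs read the same on both strands, no member window printed here holds more than 1 kind of them, and binding was not measured.

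Dlx1 in WT measured 44.3, 51.4, 54.96 and 79.97 CPM at ZT0, 21.9, 23.7, 39.97, 46.6 and 48.6 CPM at ZT6, from 73.5 to 136 CPM (median 84.1) at ZT12 and 39.2, 79.1, 86.6 and 143 CPM at ZT18. In KO Dlx1 measured 81.8, 103, 107 and 127 CPM at ZT0, from 13.2 to 89.1 CPM (median 69.2) at ZT6, 70.8, 93.96, 98.4 and 98.7 CPM at ZT12 and 103, 104, 126 and 133 CPM at ZT18. The KO ZT6 group held 2 separate sets, replicates 1 to 3 at 13.2, 25.9 and 28.1 CPM and replicates 4 to 7 at 69.2 to 89.1 CPM, with no value between. In WT all ZT12 libraries were above all ZT6 libraries (mean ratio 2.602, adjusted p = 0.0251), and in KO all ZT18 libraries were above all ZT6 libraries (mean ratio 2.15, adjusted p = 0.0352), a call lost in 6 of the 38 fits that leave out 1 library. At ZT0 the 4 KO libraries were all above the 4 WT libraries (log2 fold change 0.86, SE 0.37, adjusted p = 0.203). The antisense gene Dlx1as shares 6.21% of the Dlx1 exon bases.

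Dlx2 in WT measured 13.98, 18.98, 23.4 and 40.7 CPM at ZT0, 11.8, 15.3, 15.7, 20.2 and 23.1 CPM at ZT6, from 33.97 to 68.6 CPM (median 38.3) at ZT12 and 22.4, 30.04, 37.2 and 51.9 CPM at ZT18. In KO Dlx2 measured 34.8, 37.96, 41.7 and 57.5 CPM at ZT0, from 8.76 to 48.5 CPM (median 26.3) at ZT6, 21.4, 30.1, 37.4 and 47.1 CPM at ZT12 and 43.7, 48.8, 62.5 and 64.1 CPM at ZT18. Every WT ZT12 library was above every WT ZT6 library, and at KO ZT6 the same 3 libraries, replicates 1 to 3, were low as for Dlx1. The mean ratio of ZT12 to ZT6 in WT was 2.58 (adjusted p = 0.0285), and time in KO was just short of a call (ratio 2.13, adjusted p = 0.0513). Dlx5 in WT measured 5.49, 7.697, 8.204 and 9.31 CPM at ZT0, 3.81, 4.26, 4.69, 6.28 and 7.84 CPM at ZT6, from 9.63 to 18.3 CPM (median 13.8) at ZT12 and 5.53, 9.75, 10.2 and 19.3 CPM at ZT18. In KO Dlx5 measured 10.6, 10.8, 18.9 and 21.6 CPM at ZT0, from 3.03 to 15.1 CPM (median 10.4) at ZT6, 9.26, 9.41, 14.04 and 14.4 CPM at ZT12 and 12.01, 12.99, 17.7 and 19.6 CPM at ZT18. Again every WT ZT12 library was above every WT ZT6 library (ratio 2.61, adjusted p = 0.0241), KO ZT6 replicates 1 to 3 were the low ones, and all 4 KO ZT0 libraries were above all 4 WT ZT0 libraries (log2 fold change 1.01, SE 0.37, adjusted p = 0.130). Time in KO was not called for Dlx5 (adjusted p = 0.170). All 7 WT calls, those of Tubb3, Stmn2 and Nrgn included, were lost without WT ZT6 replicate 1 and also without WT ZT6 replicate 2, which are the 2 lowest libraries of that group for 6 of the 7 genes (not for Dlx5). The calls of the 3 Dlx genes were also lost without WT ZT12 replicate 5, those of Dlx2 and Dlx5 without WT ZT6 replicate 5, that of Gad2 without WT ZT6 replicate 3 and that of Stmn2 without WT ZT6 replicate 4.

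Gad2 encodes GAD65 and Gad1 encodes GAD67, the enzymes that make GABA. Gad2 in WT measured 17.8, 24.6, 29.6 and 39.8 CPM at ZT0, 11.02, 11.1, 14.3, 15.8 and 16.8 CPM at ZT6, from 24.8 to 42.2 CPM (median 28.01) at ZT12 and 12.4, 20.7, 28.8 and 54.6 CPM at ZT18. In KO Gad2 measured 27.4, 31.7, 35.4 and 35.8 CPM at ZT0, from 7.26 to 24.8 CPM (median 20.05) at ZT6, 30.9, 33.6, 41.1 and 47.5 CPM at ZT12 and 30.1, 30.5, 41.5 and 42.02 CPM at ZT18. All KO libraries of the other times were above all KO ZT6 libraries, and all WT ZT0 and ZT12 libraries were above all WT ZT6 libraries, while 1 WT ZT18 library fell among the latter. The mean ratio of ZT12 to ZT6 was 2.299 in WT (adjusted p = 0.0224) and 2.11 in KO (adjusted p = 0.00907). Gad1 in KO measured 65.5, 78.2, 86.8 and 92.1 CPM at ZT0, from 46.8 to 70.1 CPM (median 54.8) at ZT6, 75.3, 81.1, 85.3 and 90.9 CPM at ZT12 and 65.6, 75.2, 77.4 and 78.3 CPM at ZT18. Gad1 in WT measured 58.7, 71.3, 76.00 and 82.1 CPM at ZT0 and 47.9, 57.8, 58.9, 60.5 and 64.9 CPM at ZT6. Gad1 in WT measured from 56.3 to 94.3 CPM (median 76.3) at ZT12 and 42.99, 57.6, 76.8 and 109 CPM at ZT18. All KO ZT12 libraries were above all KO ZT6 libraries (ratio 1.498, adjusted p = 0.0112).

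Slc32a1, the vesicular GABA transporter, measured in KO 6.35, 10, 13.04 and 17.5 CPM at ZT0, from 2.52 to 10.1 CPM (median 5.27) at ZT6, 1.71, 8.305, 11.6 and 12.8 CPM at ZT12 and 13.5, 15.3, 17.5 and 21.1 CPM at ZT18. Slc32a1 in WT measured 2.700, 4.47, 6.68 and 14.3 CPM at ZT0 and 2.39, 2.72, 4.09, 4.48 and 7.78 CPM at ZT6. Slc32a1 in WT measured from 5.65 to 22.3 CPM (median 7.19) at ZT12 and 3.13, 4.21, 7.41 and 13.4 CPM at ZT18. The KO ZT18 libraries were all above the KO ZT6 and ZT12 libraries (ratio of ZT18 to ZT6 2.98, adjusted p = 0.0419). The call was lost in 11 of the 38 fits that leave out 1 library. An antisense gene, Gm14205, shares 24.9% of its exon bases. Sst, the neuropeptide somatostatin of a class of interneurons, measured in KO 5.43, 5.79, 6.097 and 7.86 CPM at ZT0, from 0.0855 to 4.41 CPM (median 1.93) at ZT6, 0.569, 1.94, 2.31 and 2.89 CPM at ZT12 and 5.24, 5.54, 6.57 and 9.297 CPM at ZT18. Sst in WT measured 2.21, 3.42, 6.03 and 8.82 CPM at ZT0 and 0.384, 0.703, 1.07, 1.17 and 2.37 CPM at ZT6. Sst in WT measured from 1.35 to 9.58 CPM (median 5.54) at ZT12 and 1.100, 1.42, 4.25 and 4.96 CPM at ZT18. The KO ZT0 and ZT18 libraries were above all KO ZT6 and ZT12 libraries (ratio of ZT18 to ZT12 3.46, adjusted p = 0.0121), and the lowest value, in KO ZT6 replicate 1, rests on 2 reads. Reln, the secreted glycoprotein reelin of Cajal-Retzius cells and interneurons, measured 38.9, 41.1, 60.99 and 119 CPM at ZT18 in WT and 136, 142, 144 and 145 CPM in KO. The KO values were closely grouped and above all WT values, but the difference was not called (log2 fold change 1.12, SE 0.43, adjusted p = 0.142). The remaining members, Dlx6 and the neuropeptide Npy, ranged over 0.610 to 5.18 CPM and 0.375 to 6.54 CPM in WT and 0.171 to 5.704 CPM and 0.684 to 4.43 CPM in KO with no call.

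Group means of the list shared a shape over the times, and some markers of other cells had the same low point. In WT the lowest group mean was at ZT6 for 33 of the 35 genes (28.9% of all genes tested), and the highest was at ZT12 for 17 (25.1%), at ZT0 for 14 (28.3%) and at ZT18 for 4 (19.99%). In KO the lowest mean was at ZT6 for 24 (18.9%) and at ZT12 for 8 (28.2%), and the highest at ZT18 for 24 (26.1%) and at ZT0 for 9 (23.7%). The members varied together, so these counts are not 35 separate observations. Mean marker sums of astrocytes and of red blood cells were also lowest at ZT6 in both genotypes. They stood at 1144 and 1842 CPM in WT and at 1221 and 2217 CPM in KO. Sums of oligodendrocytes and choroid plexus were lowest there in WT alone, of vessels in KO alone, and of OPCs and microglia in neither. The part of other cells in this shape was not tested. A call for time in KO and none in WT does not show that the genotypes differ. The test of that difference, the interaction, was called for Syn1, Syp and Nefm. With the rRNA class as a covariate 19 members were called for time in KO and 5 in WT, of which 16 and 4 were also called without it. The calls of Syn1, Tubb3, Map2, Dcx, Bcl11b, Slc32a1 and Dlx1 in KO were lost, and those of Dlx1, Dlx2 and Dlx5 in WT. Without the low-rRNA libraries, where KO ZT18 drops out, 8 were called for time in KO (Snap25, Syp, Dcx, Gap43, Nefl, Nrgn, Gad1 and Gad2) and 3 in WT (Stmn2, Rbfox1 and Nrgn), and none for the interaction.

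Neuronal genes varied together from library to library after the group means were removed. Over the 595 pairs of members the median Pearson r of these residuals over 38 libraries was 0.52, with 322 pairs above 0.5 and 9 below 0. No such values over pairs of all genes tested are given as a background. The median was 0.62 within the excitatory genes, 0.63 within the inhibitory genes and 0.53 between them. These classes are the labels of the list. Bcl11b, also of striatal neurons, counts there as excitatory, and Reln, also of Cajal-Retzius cells, as inhibitory. All points share library depth and scaling, and CPM values are shares of 1 total. For 18 pairs a permutation test within groups (100000 resamples, two-sided, Benjamini-Hochberg adjusted over the 18) was made, and 11 had an adjusted p under 0.05 for r.

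Dlx1 and Dlx2 varied most closely (r = 0.911, Spearman rho = 0.917, permutation p = 1e-05, the smallest these permutations can give, adjusted p = 6e-05). Gad2 and Slc32a1, the enzyme that makes GABA and its vesicular transporter, had r = 0.773 (rho = 0.845, permutation adjusted p = 6e-05), and Gad1 and Gad2 had r = 0.626 (rho = 0.552, permutation adjusted p = 0.00459). Dlx5 and Dlx6 had r = 0.749 (rho = 0.676, permutation adjusted p = 7.2e-05). Among excitatory genes r was 0.681 for Slc17a6 and Slc17a7 (rho = 0.615, permutation adjusted p = 0.00033), 0.629 for Neurod6 and Tbr1 (rho = 0.634, permutation adjusted p = 0.00121) and 0.612 for Neurod2 and Neurod6 (rho = 0.515, permutation adjusted p = 0.0018). These pairs join genes of 1 neuronal class.

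Among pan-neuronal pairs, Rbfox3 and Syt1 had r = 0.747 (rho = 0.663, permutation adjusted p = 7.2e-05), Dcx and Stmn2 0.569 (rho = 0.593, permutation adjusted p = 0.00459) and Stmn2 and Gap43 0.486 (rho = 0.529, permutation adjusted p = 0.0148). Snap25 and Syt1 (r = 0.385, rho = 0.367, permutation adjusted p = 0.0568) and the overlapping Nefl and Nefm (r = 0.392, rho = 0.45, permutation adjusted p = 0.0546) missed the threshold for r, as did Dlx2 with Neurod6 (r = 0.187) and Dlx1 with Snap25 (r = -0.032). For Nefl and Nefm rho passed it (permutation adjusted p = 0.0195). Their r passed without the 2 libraries farthest from the Nefl median (0.48, permutation adjusted p = 0.0244) and with CPM scaled by library size alone (0.446, permutation adjusted p = 0.025). Snap25 ran opposite to Cx3cr1, a microglial receptor (r = -0.757, rho = -0.748, permutation adjusted p = 6e-05), and had r = 0.118 with Pdgfra and -0.034 with Aqp4, an astrocyte channel, while Gap43 had r = 0.301 with Pdgfra. Over the members r with Cx3cr1 ran from -0.757 for Snap25 to 0.09 for Sst. It was -0.739 for Map2 and -0.736 for Elavl3, and only that of Snap25 was tested.

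Without the 2 libraries farthest from the median of the first gene, r of the 11 called pairs lay between 0.41 (Gad1 and Gad2) and 0.904 in size, and all 11 kept an adjusted p under 0.05 for r. Within the 30 higher-rRNA libraries it lay between 0.508 (Stmn2 and Gap43) and 0.901 in size, again with 11 of 11 called for r. The 8 low-rRNA libraries fall in 3 groups, 1 of them a single library, and were not tested alone. Not every member followed the rest: Map2 had r = 0.015 with Syt1 and 0.70 with Pdgfra, and Syn1 had r = 0.25 with Syt1 and 0.65 with Pdgfra, given as a description with no test.

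**Figure D5:**
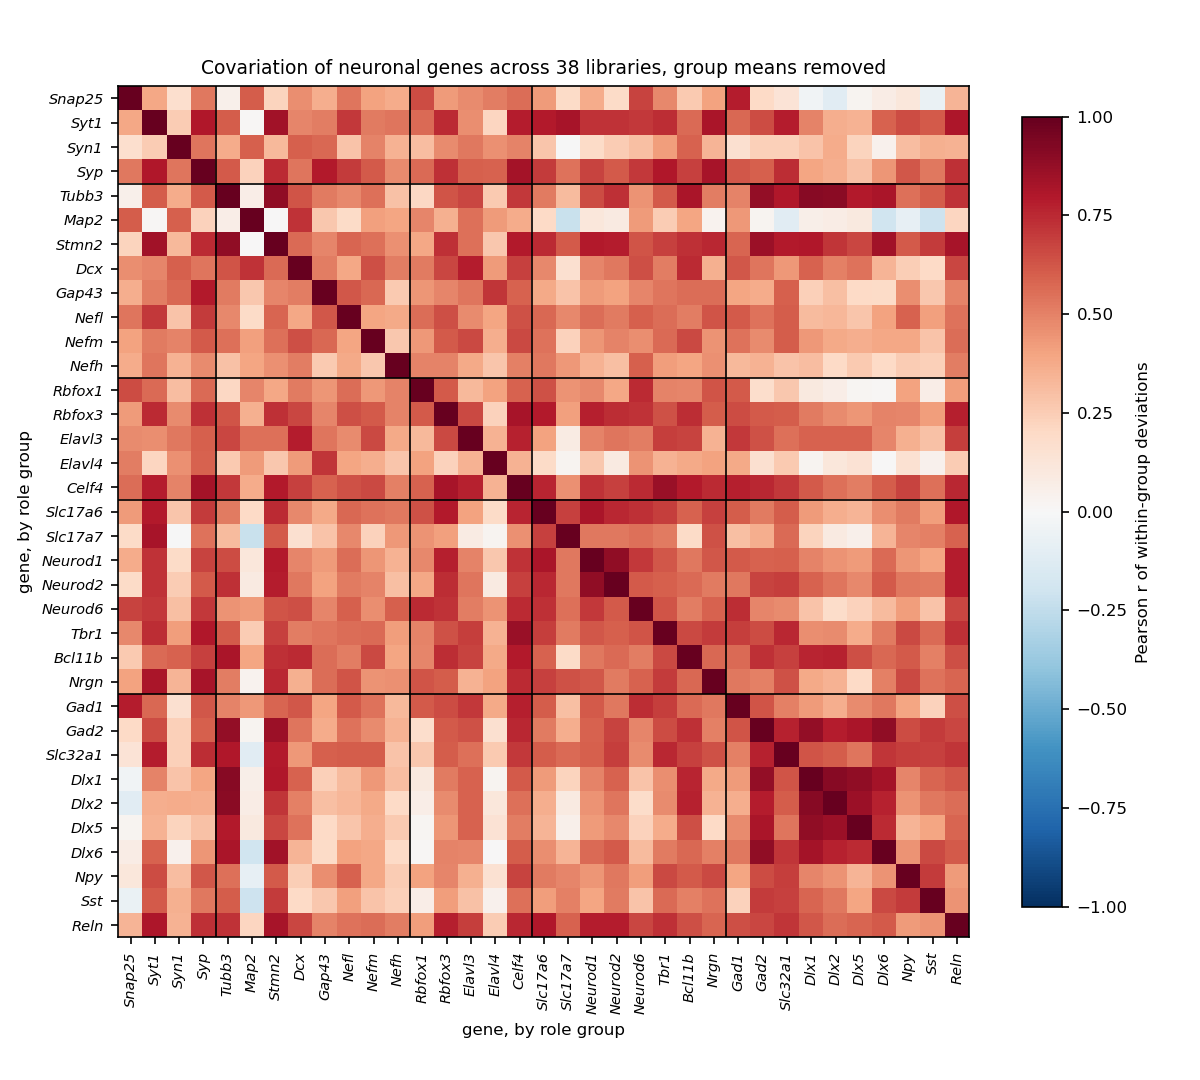
Pearson r between the 35 neuronal genes over 38 libraries after subtracting group means, genes ordered by role, from blue (negative) to red (positive). Most pairs are positive (median 0.52), the Dlx genes and the Gad2, Slc32a1 block are strongly so, and Map2 and Elavl4 stand apart with weak values against most others.

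Beyond the 35, more genotype calls were made among other neuronal genes. Of 40 further neuronal genes, mostly of vesicles and secretion, 8 fell in KO at ZT12, none rose and 37 had negative log2 fold changes (median -0.32). The 4 with the smallest p were Chga and Chgb, granins of dense-core vesicles (log2 fold changes -0.88 and -0.80, SE 0.15 and 0.16, adjusted p = 0.000892 and 0.00342), Camk2n1, an inhibitor of CaMKII (-0.45, SE 0.10, adjusted p = 0.00994), and Stx1a, a SNARE protein (-0.67, SE 0.16, adjusted p = 0.0117). At ZT18, 2 of the 40 rose in KO, Camk2n1 (0.56, SE 0.11, adjusted p = 0.0112) and Chgb (0.60, SE 0.17, adjusted p = 0.0493), and 38 were positive (median 0.49). The interaction was called for 11 of the 40, with Camk2n1, Chga, Chgb and Cplx1 at the smallest p (adjusted p = 0.000557, 0.000583, 0.000757 and 0.00332). Time was called for 31 of the 40 in KO and for 1 in WT (Camk2a, adjusted p = 0.0244). As shares of the 40, calls were 20% at ZT12, 5% at ZT18, 27.5% for the interaction, 77.5% for time in KO and 2.5% in WT. Of all genes tested, 5% were called at ZT12, 2.14% at ZT18, 9.19% for the interaction, 21.9% for time in KO and 4.91% in WT. Without the low-rRNA libraries KO ZT18 drops out, so the interaction covers ZT0, ZT6 and ZT12 only and is a different test. No gene of all those tested was called for it, which does not repeat the test behind the 11 calls. At ZT12, where WT libraries drop out too, 1 gene of all those tested was called, so at least 7 of the 8 ZT12 calls were lost.

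Camk2n1, as the gene with the smallest interaction p of the 40, crossed between these times. At ZT12 it ranged from 54.2 to 67.3 CPM in the 6 WT libraries and from 39.1 to 53.6 CPM in the 4 KO libraries, and at ZT18 from 54.8 to 59.5 CPM in WT and from 80.5 to 89.4 CPM in KO. The groups overlapped at neither time, but the gene was chosen by its interaction p, so this is no separate evidence. Of all genes tested, 3.15% had every KO library below every WT library at ZT12. At ZT18, 10.4% had every KO library above every WT library. Its ZT18 comparison also sets low-rRNA KO libraries against higher-rRNA WT libraries.

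Newborn neuron genes, 15 transcripts of immature neurons and their progenitors, had no genotype call at any time and none for the interaction. At ZT12 the smallest p were those of Sox4 (log2 fold change -0.41, SE 0.18, adjusted p = 0.172) and Sp9 (-0.67, SE 0.34, adjusted p = 0.262), and at ZT18 those of Nhlh1 (2.06, SE 0.91, adjusted p = 0.216) and Igfbpl1 (0.81, SE 0.40, adjusted p = 0.27). Time was called for 5 of the 15 in WT, among them Sp9, Dlx6os1 and Nrep (adjusted p = 0.0168, 0.0172 and 0.0397), and for 7 in KO, among them Nrep, Dlx6os1 and Tubb2b (adjusted p = 0.00628, 0.0121 and 0.0194). Over all genes tested, time was called for 4.91% in WT and 21.9% in KO. Sp9 is a transcription factor of GABAergic precursors and Dlx6os1 is a noncoding RNA of the Dlx5 and Dlx6 locus.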

How the data were processed

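Per the labels, polyA RNA of panned forebrain OPCs was sequenced with paired ends in 38 libraries. The authors deposited a table of raw read counts per gene, and the submitters' processing notes name GRCm38 with featureCounts (1.5.0-p3), HISAT2 (2.0.5) and fastp. Strand setting and annotation release are not stated there. Groups came from the labels, and 0 sample columns were unmapped. Counts were tested with edgeR 4.0.16 in R 4.3.3 (quasi-likelihood test, TMM scaling, low-count filter by group, 8 group means fitted to all 38 libraries), with Benjamini-Hochberg adjusted p over 22798 genes and a threshold of 0.05. Genes tested held 99.9% of counts. Depth was 19.376 to 39.007 M counts per library. Time tests compare all 4 times at once. DESeq2 1.42.0, limma 3.58.1 (voom), other scalings and filters, covariates and leaving out libraries were alternatives. The fits were tested on simulated data.

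All 35 members are named. Values per library (lowest, median and highest in groups over 5) are given for those called in any comparison, and of the further neuronal lists up to 4 called genes per comparison with the smallest p, or else the 2 with the smallest p. 1 gene that this rule names is not reported here. Members, lists and tests were chosen with earlier results of these data known. The alternative without the single-sex libraries was added after the data were seen.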

Additional observations from a re-analysis of the deposited data

Results flagged for a closer look

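Syn1, Syp and Nefm were singled out because their genotype difference itself depended on the time of day, with interaction adjusted p = 0.011671, 0.015405 and 0.033385 (edgeR quasi-likelihood test, Benjamini-Hochberg).

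A further 19 values stood far from the other libraries of their group by Dixon's criterion, out of 280 gene and group series. Chance flags about 1 in 20 groups, which is of the order seen. They fall on 13 genes, and 12 are high and 7 low.

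KO ZT6 replicate 4 accounts for 5 of them, all high and mostly in excitatory genes: Rbfox3 at 17.88 CPM, Celf4 at 62.01 CPM, Slc17a6 at 12.5 CPM, Neurod1 at 39.44 CPM and Neurod6 at 4.166 CPM. Other high values were Syn1 at 74.33 CPM in KO ZT6 replicate 6, Syp at 53.94 CPM in WT ZT12 replicate 3, Dcx at 551.8 CPM in WT ZT0 replicate 4 and Rbfox1 at 18.23 CPM in WT ZT6 replicate 3. Slc17a6 reached 9.675 CPM in KO ZT12 replicate 4, and Neurod1 reached 12.35 CPM in WT ZT18 replicate 4 and 14.1 CPM in KO ZT18 replicate 2.

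Low values were Dcx at 299.1 CPM in WT ZT6 replicate 2, Nefl at 7.323 CPM in KO ZT0 replicate 4 and at 9.983 CPM in KO ZT18 replicate 2, and Nefm at 14.57 CPM in KO ZT0 replicate 2. Neurod1 was low at 1.5 CPM in WT ZT6 replicate 1, Dlx1 at 70.83 CPM in KO ZT12 replicate 1 and Sst at 0.08545 CPM in KO ZT6 replicate 1.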

How the results depend on the processing

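No called genotype difference and no called pair correlation reversed its direction under any alternative run. Pairs that were not called could change sign. For Dlx1 and Snap25 r was -0.032 in the main run and 0.052, 0.104 and 0.039 in the alternatives. For Snap25 and Aqp4 r was -0.034 and turned positive (0.012) only with library size alone. Counts of members called moved as follows, and the cause was not tested except where fewer libraries were fitted. Without the low-rRNA libraries they were 0 at ZT12, 0 for the interaction, 3 for time in WT and 8 for time in KO. The ZT18 difference could not be fitted there, and the interaction, the time test in KO and the mean over all times left ZT18 out. With the rRNA class as a covariate the counts of members called were 0 at ZT12, 0 at ZT18 and 0 for the interaction. Without the single-sex libraries they were 0 at ZT12, 0 at ZT18, 0 for the interaction, 3 for time in WT and 14 for time in KO. With only the libraries compared they were 0 at ZT12 and 6 at ZT18. DESeq2 gave 2 at ZT18 and 12 for time in WT, limma-voom 4 at ZT18, and no filter 5 for the interaction. Leaving out each library in turn gave 0 to 1 over all times, 0 to 3 at ZT0, 0 to 0 at ZT6, 0 to 1 at ZT12, 0 to 1 at ZT18, 2 to 4 for the interaction, 0 to 9 for time in WT and 19 to 28 for time in KO.

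Over all genes, calls numbered 21 over all times, 65 at ZT0, 3 at ZT6, 1139 at ZT12, 488 at ZT18, 2096 for the interaction, 1120 for time in WT and 5001 for time in KO. They became 5, 4, 1, 1, none fitted, 0, 724 and 2050 without the low-rRNA libraries, 8, 115, 3, 78, 2, 43, 845 and 2656 with the rRNA covariate, and 8, 1, 1, 712, 1, 724, 487 and 3034 without the single-sex libraries, in the same order. DESeq2 gave 232, 932, 3, 1630, 1211, 3122, 1765 and 6367. With only the libraries compared there were 1 at ZT0, 145 at ZT12 and 2393 at ZT18, limma-voom gave 746 at ZT18, the CPM filter 169 at ZT0 and no filter 802 at ZT12. Leaving out each library in turn gave 10 to 633 over all times, 1 to 2208 at ZT0, 2 to 5 at ZT6, 259 to 1357 at ZT12, 44 to 761 at ZT18, 1049 to 3175 for the interaction, 661 to 1449 for time in WT and 3632 to 5301 for time in KO.

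Replicate numbers were not used as pairs in the main fit. Over 17 pairs that share a number the correlation of deviations ran from -0.447 to 0.619, and 9 were over 0.1. In 7 of the 17 the WT library correlated best with the KO library of its own number, so pairing at some times is not settled. A fit with the replicate block called 3 members at ZT18 (Syp, Nefm and Reln), and 467, 726 and 996 of all genes at ZT0, ZT12 and ZT18. The lowest library had 1 to 5 reads for Nefh, Sst, Dlx6, Slc17a7 and Neurod2. Counting noise was estimated at 20.2% of the within-group variance for Nefh. It was 7.56% for Dlx6, 6.44% for Sst, 5.62% for Neurod2 and 3.77% for Slc17a7.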
